A study of Mus musculus with 27 samples.

Results

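The genes of de novo lipogenesis were followed through the zones of the mouse liver lobule before and during pregnancy. The set was chosen by name and holds 10 genes of the 21823 in the table: Srebf1, Fasn, Acaca, Acacb, Acly, Scd1, Elovl6, Thrsp, Me1 and Pnpla3. All 10 were in the table, and all 10 passed the filter on low values that 12952 genes passed. RNA came from female C57BL/6 mice of WT genotype, and the labels name no treatment. One stage was before pregnancy (non-pregnant, NP) and the others were dpc8 and dpc16, days 8 and 16 after mating, and the study's methods describe the line as C57BL/6N and the animals as adult virgin females, with pregnant mice kept by litter size. Zone 1, zone 2 and zone 3 were cut from frozen sections by laser microdissection, and each of the 9 groups of stage and zone has 3 libraries. Zone 1 surrounds the portal vein, where blood enters the lobule, zone 3 surrounds the central vein where it leaves, and zone 2 is the middle layer. The titles number the libraries of each group from 1 to 3 and do not say whether zones of 1 number came from 1 mouse.

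De novo lipogenesis makes fatty acids from carbohydrate. Acetyl-CoA is set free in the cytosol by ATP citrate lyase (Acly), carboxylated to malonyl-CoA by the acetyl-CoA carboxylases (Acaca and Acacb) and built into palmitate by fatty acid synthase (Fasn) with NADPH that malic enzyme (Me1) helps to supply. Elovl6 lengthens palmitate and Scd1 puts in a double bond, which gives oleate and palmitoleate for triglycerides. In liver the pathway is known for its response to insulin and carbohydrate through the transcription factors SREBP-1c, a product of Srebf1, and ChREBP, encoded by Mlxipl, and Thrsp and Pnpla3 are known as targets of these factors.

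The values are FPKM, fragments per kilobase of transcript scaled to the fragments mapped in the library, so levels of different genes can be set side by side. Depth, estimated from the steps between low values, was 7.53 to 33.35 M reads (M, mega) per library, with 16.44 M reads as the median, and 10581 to 11997 genes reached 1 FPKM. The summed FPKM of 5 zone 1 markers was 1236 to 3625 in the libraries of zone 1 and 5.71 to 61.7 in those of zone 3, and that of 5 zone 3 markers was 6678 to 18055 in zone 3 and 239 to 462 in zone 1. All 5 hepatocyte markers were above 0 in every library. Of 6 adipocyte markers, Lep was listed at 0 in 27 of 27 libraries, Adipoq and Retn in 25, and Plin1 and Cfd in 23, with no value over 0.297 FPKM. Lipe, the remaining marker on this list, was above 0 in every library and made up most of its sum of 2.26 to 17.0 FPKM. In 6 libraries Y-linked genes summed to more than 5 FPKM although every mouse is labelled female, and the markers of connective tissue and smooth muscle summed to 986 to 4573 FPKM there, against 84.7 to 562 in the other 21. They were replicate 1 of zone 1 and replicate 2 of zone 3 in NP, replicate 1 of zone 1 and replicate 2 of zone 2 at dpc8, and replicate 3 of zones 2 and 3 at dpc16.

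The 250 bases before the transcription start are shown for 3 members, Acly and Pnpla3 because their levels differed between zones, and Fasn because its product makes the fatty acid. They were taken from RefSeq on GRCm38.p6, which held a promoter entry for 9 of the 10 members, all except Scd1. Capitals mark matches, on either strand, to CCAAT (the CCAAT box, ATTGG on the other strand) or GGGCGG (the GC box, CCGCCC on the other strand), and all 3 are printed 5′ to 3′ on the strand of the gene. The windows are chr11:120824548-120824797 on the minus strand for Fasn, chr11:100528001-100528250 on the minus strand for Acly and chr15:84167566-84167815 on the plus strand for Pnpla3.
Fasn: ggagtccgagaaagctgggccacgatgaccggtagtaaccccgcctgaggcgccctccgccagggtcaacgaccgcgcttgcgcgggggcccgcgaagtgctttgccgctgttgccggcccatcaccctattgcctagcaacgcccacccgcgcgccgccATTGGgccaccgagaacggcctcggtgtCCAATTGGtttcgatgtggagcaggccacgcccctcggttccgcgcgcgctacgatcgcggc
Acly: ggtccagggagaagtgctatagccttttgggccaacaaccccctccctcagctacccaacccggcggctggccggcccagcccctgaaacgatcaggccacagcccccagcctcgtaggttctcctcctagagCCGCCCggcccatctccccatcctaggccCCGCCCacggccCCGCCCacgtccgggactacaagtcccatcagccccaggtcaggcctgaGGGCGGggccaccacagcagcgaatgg
Pnpla3: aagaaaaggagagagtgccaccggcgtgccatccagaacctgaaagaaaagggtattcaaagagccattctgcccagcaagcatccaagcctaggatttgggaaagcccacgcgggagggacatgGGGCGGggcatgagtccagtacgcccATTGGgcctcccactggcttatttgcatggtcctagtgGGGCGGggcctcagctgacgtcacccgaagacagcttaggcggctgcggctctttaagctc

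The 9 members had 12 windows, 3 for Srebf1, 2 for Me1 and 1 for each of the others. CCAAT lay in at least 1 window of 6 of the 9 members (Srebf1, Fasn, Acacb, Thrsp, Me1 and Pnpla3), where 37.5% of all 27025 genes had such a window, and counted by window in 7 of 12 against 33.8% of all 32851 windows of this length. GGGCGG lay in at least 1 window of 4 members (Srebf1, Acly, Me1 and Pnpla3) against 35.4% of all genes, and in 5 of 12 windows against 32.7%. CACGTG was found in 6.02% of all windows and TCACNCCAC in 1.05%, and neither in a window of a member. Fasn had 3 CCAAT matches, of which 2 overlap on opposite strands, Acly had 4 GGGCGG matches, and Pnpla3 had 1 CCAAT and 2 GGGCGG matches. These are matches of letters in a window and were not tested for binding.

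Scd1 was the member with the highest level, from 190.02 to 2004 FPKM over the 27 libraries, and Pnpla3 the one with the lowest, from 0 to 68.6 FPKM. The highest group mean was in NP zone 1 for 6 members (Srebf1, Fasn, Acaca, Acly, Scd1 and Thrsp), in dpc8 zone 1 for Elovl6 and Me1, and in dpc16 zone 1 for Acacb and Pnpla3. The lowest was in dpc16 zone 2 or zone 3 for 7 members, in dpc16 zone 1 for Me1, in NP zone 2 for Acacb and in dpc8 zone 3 for Pnpla3. Between groups next to each other in the order of means, the 3 values of one group overlapped those of the next in 8 of 8 pairs for 7 members and in 7 of 8 for Srebf1, Elovl6 and Pnpla3.

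**Figure D1:**
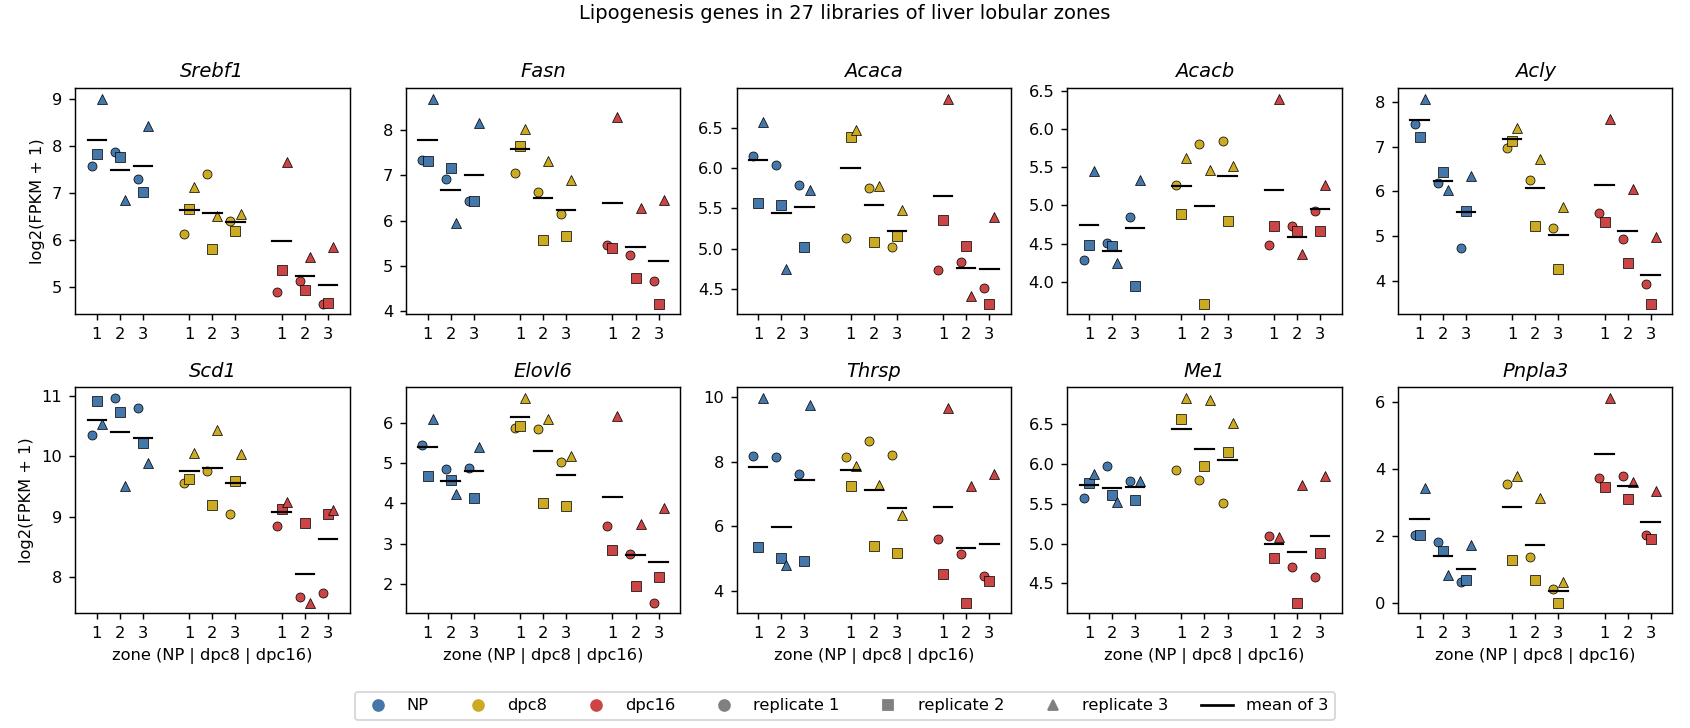
FPKM of the 10 lipogenesis genes in each of the 27 libraries, as log2(FPKM + 1), by zone (1 to 3) within NP, dpc8 and dpc16, with symbols for the replicate number and a bar for the mean of 3; each panel has its own vertical range. All 9 dpc16 values of Scd1 lie below its lowest NP value of 732 FPKM, and in dpc16 zone 1 replicate 3 is the highest library for 9 of the 10 genes.

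Srebf1 (ENSMUSG00000020538.15, chr11:60199089-60222581 on mm10, minus strand) encodes SREBP-1, the transcription factor that switches on the lipogenic enzymes, and gene-level FPKM does not separate its isoforms. Srebf1 in NP livers measured 191, 226 and 518 FPKM in zone 1, 234, 217 and 114 in zone 2 and 156, 129 and 342 in zone 3. Srebf1 at dpc8 measured 68.7, 99.8 and 139.6 FPKM in zone 1, 167, 55.2 and 90.7 in zone 2 and 83.2, 72.1 and 93.2 in zone 3. Srebf1 at dpc16 measured 28.6, 39.7 and 203 FPKM in zone 1, 33.5, 29.4 and 48.9 in zone 2 and 23.8, 24.1 and 56.2 in zone 3. Of the dpc8 values 7 of 9, and of the dpc16 values 8 of 9, lay below the lowest NP value, and the dpc16 exception, replicate 3 of zone 1, also lay above every dpc8 value.

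Acly (ENSMUSG00000020917.17, chr11:100476353-100528000, minus strand) supplies the cytosolic acetyl-CoA from which the pathway starts. Acly in NP livers measured 181, 147 and 267 FPKM in zone 1, 72.2, 85.3 and 64.8 in zone 2 and 25.6, 46.4 and 79.8 in zone 3. Acly at dpc8 measured 124, 138 and 170.1 FPKM in zone 1, 75.6, 36.5 and 105 in zone 2 and 35.5, 18.2 and 49.3 in zone 3. Acly at dpc16 measured 44.6, 38.9 and 195 FPKM in zone 1, 29.5, 20.02 and 65.2 in zone 2 and 14.3, 10.3 and 30.7 in zone 3. Zone 1 was above zone 3 at each stage with no overlap between the 3 values of each, and the group means were ordered from zone 1 through zone 2 down to zone 3 at each stage.

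Me1 (ENSMUSG00000032418.15, chr9:86581371-86695953, minus strand) makes cytosolic NADPH from malate. Me1 in NP livers measured 46.7, 53.3 and 57.4 FPKM in zone 1, 61.5, 47.8 and 45.1 in zone 2 and 53.95, 45.9 and 54.2 in zone 3. Me1 at dpc8 measured 59.5, 93.7 and 113 FPKM in zone 1, 54.5, 61.8 and 110.1 in zone 2 and 44.5, 69.7 and 90.1 in zone 3. Me1 at dpc16 measured 33.04, 27.1 and 32.99 FPKM in zone 1, 25.1, 18.1 and 52.2 in zone 2 and 22.9, 28.4 and 56.3 in zone 3. Its NP values spanned the narrow range of 45.1 to 61.5 FPKM in all zones together, with 6 of 9 dpc8 values above this range and 7 of 9 dpc16 values below it.

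Acaca (ENSMUSG00000020532.18, chr11:84129672-84401651, plus strand) and Acacb (ENSMUSG00000042010.16, chr5:114146535-114250761, plus strand) encode the carboxylases, the first in the cytosol for synthesis and the second at the mitochondrial surface, where malonyl-CoA restrains fatty acid oxidation. The mean of Acaca in zone 1 was 70.1 ± 23.7 FPKM (SD, n = 3) in NP, 68.1 ± 29.5 at dpc8 and 60.2 ± 48.2 at dpc16, and its values over all libraries ran from 18.9 to 115 FPKM. The mean of Acacb in zone 1 was 27.5 ± 13.4 FPKM (SD, n = 3) in NP, 38.04 ± 9.78 at dpc8 and 43.5 ± 34.6 at dpc16, within a range of 12.1 to 83.3 FPKM. These dpc16 means rest largely on replicate 3, since the replicates were at 25.6, 39.8 and 115 FPKM for Acaca and 21.4, 25.6 and 83.3 FPKM for Acacb. Both genes had wide spreads and overlapping values at all 3 stages, and Acacb was the only member besides Pnpla3 with no dpc16 value below its lowest NP value.

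Fasn (ENSMUSG00000025153.9, chr11:120805846-120824547, minus strand) encodes the synthase. Fasn in NP livers measured 161, 159 and 415 FPKM in zone 1, 120.2, 143 and 61.03 in zone 2 and 84.98, 85.9 and 286 in zone 3. Fasn at dpc8 measured 132, 201 and 258 FPKM in zone 1, 97.5, 46.3 and 157 in zone 2 and 70.3, 49.4 and 119 in zone 3. Fasn at dpc16 measured 43.02, 41.1 and 310.2 FPKM in zone 1, 36.6, 25.6 and 77.03 in zone 2 and 24.5, 16.9 and 87.1 in zone 3. Replicates 1 and 2 of each dpc16 zone were low and replicate 3 was high, up to 310 FPKM in zone 1, and 6 of 9 dpc16 values lay below the lowest NP value.

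Scd1 (ENSMUSG00000037071.3, chr19:44394455-44407879, minus strand) encodes the desaturase that makes monounsaturated fatty acids. Scd1 in NP livers measured 1302, 1937 and 1480.1 FPKM in zone 1, 2004, 1700.3 and 732 in zone 2 and 1785, 1198 and 947 in zone 3. Scd1 at dpc8 measured 754, 793 and 1069 FPKM in zone 1, 868, 587 and 1386 in zone 2 and 525, 768 and 1046 in zone 3. Scd1 at dpc16 measured 462, 561 and 609 FPKM in zone 1, 204, 477 and 190.02 in zone 2 and 212, 528 and 551 in zone 3. It was the 1 member whose 9 dpc16 values all lay below the 9 NP values, as those of 0.587% of all genes did.

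Elovl6 (ENSMUSG00000041220.10, chr3:129532355-129638495, plus strand) encodes the elongase acting on palmitate. Elovl6 in NP livers measured 42.8, 24.7 and 66.8 FPKM in zone 1, 28.03, 23.1 and 17.9 in zone 2 and 28.3, 16.6 and 41.2 in zone 3. Elovl6 at dpc8 measured 57.3, 59.5 and 97.2 FPKM in zone 1, 56.2, 15.001 and 66.9 in zone 2 and 31.7, 14.2 and 35.1 in zone 3. Elovl6 at dpc16 measured 9.87, 6.19 and 70.2 FPKM in zone 1, 5.66, 2.84 and 10.3 in zone 2 and 1.90, 3.55 and 13.8 in zone 3. At dpc16, 8 of 9 values lay below the lowest NP value, while replicate 3 of zone 1 lay above the highest NP value.

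Thrsp (ENSMUSG00000035686.8, chr7:97412938-97417730, minus strand) encodes Spot 14, a small protein induced with the lipogenic enzymes. Thrsp in NP livers measured 288, 40.5 and 1008 FPKM in zone 1, 284, 31.2 and 27.2 in zone 2 and 194, 29.6 and 868 in zone 3. Thrsp at dpc8 measured 282, 149.96 and 234 FPKM in zone 1, 396, 41.4 and 156 in zone 2 and 292, 35.4 and 80.3 in zone 3. Thrsp at dpc16 measured 48.3, 22.01 and 815 FPKM in zone 1, 34.5, 11.4 and 150.2 in zone 2 and 21.2, 18.98 and 195 in zone 3. Libraries of the same group lay far apart, as from 22.0 to 815 FPKM in dpc16 zone 1, and the 3 stages overlapped widely.

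Pnpla3 (ENSMUSG00000041653.5, chr15:84167837-84187236, plus strand) encodes a lipid droplet protein, adiponutrin, and is known to be induced with lipogenesis after feeding. Pnpla3 in NP livers measured 3.09, 3.04 and 9.73 FPKM in zone 1, 2.54, 1.93 and 0.780 in zone 2 and 0.547, 0.595 and 2.33 in zone 3. Pnpla3 at dpc8 measured 10.6, 1.45 and 12.7 FPKM in zone 1, 1.56, 0.598 and 7.79 in zone 2 and 0.324, 0 and 0.538 in zone 3. Pnpla3 at dpc16 measured 12.2, 9.92 and 68.6 FPKM in zone 1, 12.8, 7.55 and 11.3 in zone 2 and 3.07, 2.71 and 9.02 in zone 3. Its dpc16 values lay above its NP values in each zone without overlap, and at each stage its means were highest in zone 1 and lowest in zone 3.

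The comparison of dpc16 with NP, over the mean of the zones, asked how late pregnancy changed the pathway. Srebf1, Scd1, Elovl6, Fasn, Acly and Me1 were lower at dpc16, Pnpla3 was higher, and Acaca, Acacb and Thrsp did not pass the test. Tests used limma on log2(FPKM + 1) across all 12952 genes, with Benjamini-Hochberg adjustment and a threshold of 0.05, and fold changes are on this scale. Srebf1 changed by -2.33 ± 0.33 (log2, SE; adjusted p = 5.35e-05) and Scd1 by -1.85 ± 0.25 (adjusted p = 2.99e-05). Among the synthetic enzymes, Elovl6 changed by -1.79 ± 0.41 (adjusted p = 0.00572), Fasn by -1.53 ± 0.42 (0.018), Acly by -1.32 ± 0.32 (0.00916) and Me1 by -0.72 ± 0.21 (0.027). Pnpla3 rose by 1.81 ± 0.41 (adjusted p = 0.00475), and 5 of its 9 dpc16 values lay above its highest NP value. The 3 others had values of -0.63 for Acaca (adjusted p = 0.138), 0.30 for Acacb (0.605) and -1.29 for Thrsp (0.394). In all, 6 of 10 members were called lower and 1 higher, against 6.15% and 5.65% of all genes tested, and the median change was -1.30 for the members and -0.01 for all genes.

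These p-values treat the 3 zones of a stage as separate samples, which they may not be, since libraries of the same number deviated together over all genes at dpc16. With the zones of each stage and number averaged to 1 sample, an alternative chosen after seeing the data, limma called 2 members, Srebf1 (adjusted p = 0.014) and Scd1 (0.0197), while Pnpla3 (0.107), Elovl6 (0.146), Acly (0.179), Fasn (0.196) and Me1 (0.249) were not called. In that fit 1.6% of all genes were called lower and 1.48% higher. Me1 was also lost when any of 6 single libraries was left out, namely replicate 3 of zone 1 and replicate 1 of zone 2 in NP and replicate 2 of every zone and replicate 1 of zone 3 at dpc16 (adjusted p from 0.0511 to 0.0639). Without dpc16 zone 1 replicate 3, Acaca was also called lower, by -0.63 with that library and -0.84 without it (adjusted p = 0.0209). With array weights, Acaca (-0.76, adjusted p = 0.0116) and Thrsp (-2.14, 0.0406) were called too, which made 9. The share of all genes called with array weights is not given here. The same 7 members were called without the 6 libraries with Y-linked FPKM.

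**Figure D2:**
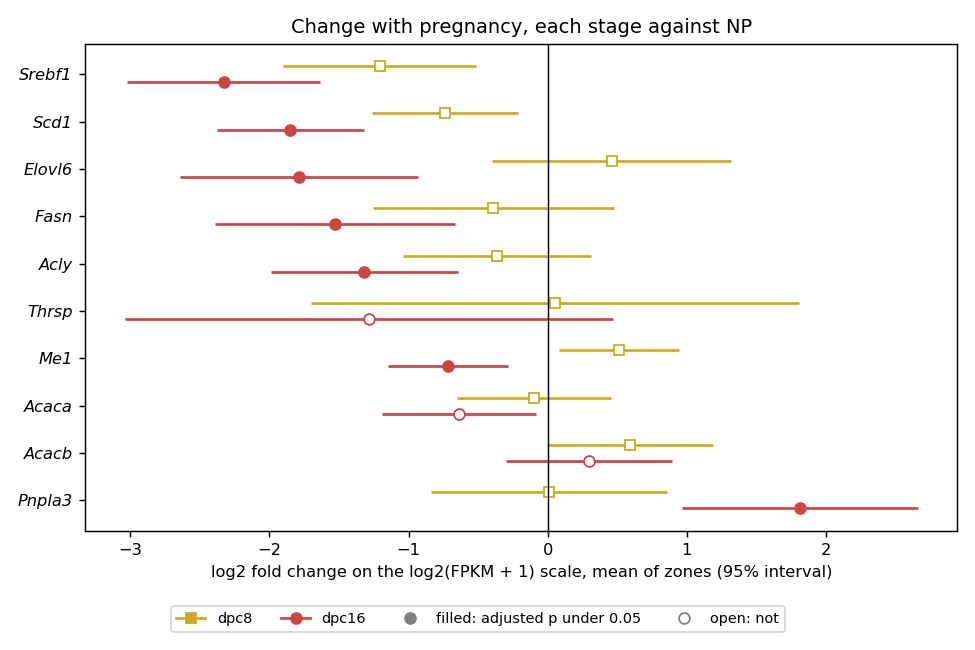
Fitted log2 fold change of each lipogenesis gene at dpc8 (squares) and dpc16 (circles) against NP, as the mean of 3 zones, with 95% intervals; filled symbols passed an adjusted p of 0.05 in the fit across all genes. At dpc16, 6 genes lie below 0 and Pnpla3 above it with filled symbols, and no symbol is filled at dpc8.

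Levels in bulk tissue cannot tell fewer cells of a type from less RNA per cell. Alb, which encodes albumin and is a marker of hepatocytes, took 3.705% to 11.98% of the FPKM sum in NP libraries and 7.977% to 20.97% at dpc16. The 5 hepatocyte markers did not move as one at dpc16 against NP, since limma called Alb (1.54 on the log2 scale, adjusted p = 0.000698) and Apoa1 (adjusted p = 0.00983) higher and Ttr (-1.49, adjusted p = 7.72e-05) lower, and Serpina1c and Fgb were not called. With the zones averaged by number Ttr alone of the 5 was called (adjusted p = 0.0232). The 5 Kupffer cell markers summed to 59.0 to 285 FPKM in NP and 21.3 to 153 FPKM at dpc16, and 3 of them (Clec4f, Cd5l and Timd4) were called lower. The part of either in the change of the lipogenesis genes was not tested. The labels give neither feeding state nor time of day.

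Within single zones the dpc16 change kept its direction but few members passed. In zone 2, Srebf1 (-2.27 ± 0.58, limma adjusted p = 0.0347) and Scd1 (-2.35 ± 0.44, 0.0036) fell, 2 of 10 members against 1.64% of all genes. In zone 3, Srebf1 alone fell (-2.54 ± 0.58, adjusted p = 0.0246), 1 of 10 members against 0.571%. In zone 1 none of the 10 was called, against 0.371% of all genes lower and 0.996% higher (at an unadjusted p under 0.05, 4 members and 11% of all genes), and Srebf1 had a value of -2.17 (adjusted p = 0.0666) and Scd1 of -1.52 (0.1). The 3 values of Scd1 lay below those of NP in all 3 zones, those of Srebf1 and Elovl6 in zones 2 and 3, and those of Me1 in zone 1, and such separation downwards was found for 8.01%, 9.59% and 8.87% of all genes in zones 1, 2 and 3. The 3 values of Pnpla3 lay above those of NP in all 3 zones, where 9.42%, 7.77% and 7.84% of all genes did so.

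Leaving out 1 library changed several of these calls. Without dpc16 zone 1 replicate 3, the library with the highest Fasn and Elovl6 of its stage, zone 1 gave 2 members, Srebf1 (-3.02, adjusted p = 0.00277) and Acly (-2.18, adjusted p = 0.0429). The Srebf1 call in zone 2 was lost without NP zone 2 replicate 1 (adjusted p = 0.11) or 2 (0.109) or dpc16 zone 2 replicate 1 (0.084) or 2 (0.0996), and that in zone 3 without NP zone 3 replicate 1 (0.0602) or 3 (0.163) or dpc16 zone 3 replicate 1 (0.135) or 2 (0.134). The Scd1 call in zone 2 held with each of the 6 libraries left out.

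Whether the dpc16 change differed between zone 1 and zone 3 was tested as an interaction. No member was called by limma and none had an unadjusted p under 0.05, against 0.054% and 3.16% of all genes, and the estimates ran from -0.13 for Me1 (95% interval -1.19 to 0.93) to 1.01 for Elovl6 (-1.09 to 3.11). All 10 intervals included 0.

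At dpc8 the members showed no change that passed the test, with 5 values above 0 and 5 below, against 0.108% of all genes called in the mean of the zones (limma, 6.11% at an unadjusted p under 0.05). Srebf1 had the lowest value, -1.21 ± 0.33 (adjusted p = 0.291), followed by Scd1 with -0.74 ± 0.25 (0.54). Acacb with 0.59 ± 0.29, Me1 with 0.51 ± 0.21 and Elovl6 with 0.46 ± 0.41 had the highest values. Of these 5 genes at dpc8, Srebf1, Scd1 and Me1 also had unadjusted p-values under 0.05 (0.00156, 0.00831 and 0.0224). In single zones none of the 10 was called either (at an unadjusted p under 0.05, 1 in zone 1 and none in zones 2 and 3), against 0.0309%, 0.00772% and 0.0154% of all genes in zones 1, 2 and 3 (unadjusted p under 0.05 for 3.13%, 5.06% and 2.74%). No member was called, or had an unadjusted p under 0.05, in the difference of the dpc8 change between zones 1 and 3, where 0% of all genes were called and 2.36% of all genes had an unadjusted p under 0.05.

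Between dpc8 and dpc16, Elovl6, Me1, Scd1 and Srebf1 fell and Pnpla3 rose in the mean of the zones. This made 4 of 10 members lower and 1 higher, against 5.69% and 5.37% of all genes. Elovl6 changed by -2.25 ± 0.41 (limma adjusted p = 0.000889), Me1 by -1.23 ± 0.21 (0.00038), Scd1 by -1.11 ± 0.25 (0.00556), Srebf1 by -1.12 ± 0.33 (0.0321) and Pnpla3 by 1.80 ± 0.41 (0.00543). Fasn, at -1.14 (adjusted p = 0.0843), and Acly, at -0.96 (0.062), did not pass. The comparisons of dpc16 with NP and with dpc8 share the dpc16 libraries. With the zones averaged by number none of the 10 was called by limma, the lowest adjusted p being that of Me1 (0.0681) and Elovl6 (0.0848), against 1.08% of all genes lower and 1.06% higher in that fit (at an unadjusted p under 0.05, 5 members and 16.1% of all genes). With the zones as separate samples the call of Srebf1 was lost when any of 12 of the 18 libraries was left out (adjusted p from 0.0519 to 0.0807), replicates 1 and 2 of each zone at dpc16 and, at dpc8, replicates 2 and 3 of zone 1 and 1 and 3 of zones 2 and 3. Without dpc16 zone 1 replicate 3, Fasn (0.0111), Acaca (0.0443) and Acly (0.00809) were called lower as well.

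Single zones gave few calls between dpc8 and dpc16. Me1 fell in zone 1 (-1.44 ± 0.36, limma adjusted p = 0.0394), 1 of 10 members against 0.741% of all genes. Scd1 fell in zone 2 (-1.75 ± 0.44, adjusted p = 0.045), against 0.803%. None was called in zone 3, against 0.788% lower and 0.587% higher (at an unadjusted p under 0.05, 5 members and 12.4% of all genes). Each call was lost when 1 library was left out, that of Me1 without any dpc16 zone 1 library or without dpc8 zone 1 replicate 2 or 3 (adjusted p from 0.072 to 0.162), and that of Scd1 without replicate 1 or 3 of either stage (0.118 to 0.284). Leaving out 1 library also added calls, Elovl6 in zone 1 without dpc16 zone 1 replicate 3 (-2.99, adjusted p = 0.0218), and in zone 2 Me1 without dpc16 zone 2 replicate 3 (-1.71, 0.0103) and Elovl6 without dpc8 zone 2 replicate 2 (-3.24, 0.0288). No member was called, or had an unadjusted p under 0.05, in the difference between zones 1 and 3 of the change from dpc8 to dpc16, against 0.0463% of all genes (5.72% at an unadjusted p under 0.05).

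Zone 1 was compared with zone 3 to see where in the lobule the pathway was transcribed. Acly and Pnpla3 were higher in zone 1 in the mean of the stages, and all 10 members had values above 0, with a median of 0.83 against 0.04 for all genes. Acly differed by 2.06 ± 0.32 (log2, SE; limma adjusted p = 0.000166) and Pnpla3 by 2.01 ± 0.41 (0.00286), 2 of 10 members against 2.7% of all genes called higher and 2.89% lower. As ratios of group means, Acly was 3.92 times as high in zone 1 as in zone 3 in NP, 4.19 times at dpc8 and 5.03 times at dpc16, and Pnpla3 4.56, 28.7 and 6.13 times. The dpc16 ratios rest largely on replicate 3 of zone 1, with Acly at 44.6, 38.9 and 195 FPKM and Pnpla3 at 12.2, 9.92 and 68.6 FPKM. On the log2 scale Acly showed no rise of this difference over the stages. The dpc8 zone 3 values of Pnpla3, at 0.324, 0 and 0.538 FPKM, rest on few reads.

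Fasn and Elovl6 followed with values of 1.13 ± 0.42 (adjusted p = 0.141) and 1.21 ± 0.41 (0.102), which missed the threshold, and Acaca with 0.76 ± 0.27 (0.118). Acacb (0.05, 95% interval -0.54 to 0.65), Me1 (0.10, -0.33 to 0.54) and Scd1 (0.31, -0.21 to 0.84) had the values nearest to 0. With the number within each stage as a random block, Fasn (limma adjusted p = 0.0489) and Elovl6 (0.0272) were called as well. This made 4 of 10, and the share of all genes called in that fit is not given here. The block covered all 3 stages. Over all genes, correlations between zones of 1 number exceeded 0.1 in 9 of 9 pairs at dpc16, but in 5 of 9 at dpc8 and 4 of 9 in NP. Acaca was called when dpc16 zone 1 replicate 1 (0.91, adjusted p = 0.043) or dpc8 zone 1 replicate 1 (0.90, 0.0468) was left out, and Elovl6 without dpc16 zone 1 replicate 2 (1.43, 0.0458) or dpc16 zone 3 replicate 3 (1.44, 0.0347).

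**Figure D3:**
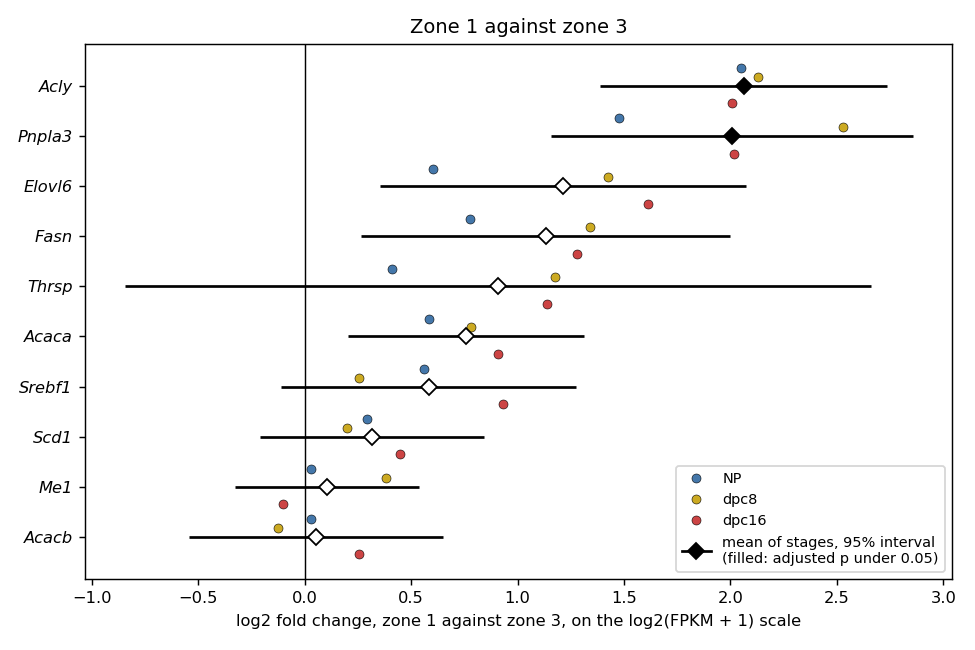
Fitted log2 fold change of zone 1 against zone 3 for each lipogenesis gene, for the mean of the stages (diamonds with 95% intervals, filled where the adjusted p was under 0.05) and for each stage (coloured points, without intervals). Acly and Pnpla3 lie at about 2 in the mean of the stages, and the points of all 3 stages lie above 0 for 8 of the 10 genes, the exceptions being Acacb at dpc8 and Me1 at dpc16.

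At each stage alone, no member passed the test between zones 1 and 3, against 1.34%, 1.61% and 1.55% of all genes in NP, at dpc8 and at dpc16 (unadjusted p under 0.05 for 2, 2 and 3 members and for 8.02%, 12.2% and 7.86% of all genes). Acly came closest, with 2.05 in NP (limma adjusted p = 0.0916), 2.13 at dpc8 (0.0587) and 2.01 at dpc16 (0.0874). With the number as a fixed block, Acly was called at dpc16 (adjusted p = 0.00433). That block gives each number the same effect at all 3 stages and is not a pairing of the dpc16 libraries alone. Acly was also called at dpc16 without dpc16 zone 3 replicate 3 (2.43, adjusted p = 0.0478), and Pnpla3 at dpc8 without dpc8 zone 1 replicate 2 (3.31, 0.0193). The 3 zone 1 values lay above the 3 zone 3 values for Acly and Pnpla3 in NP (2 of 10 members, 6.63% of all genes), for Fasn, Acly, Elovl6 and Pnpla3 at dpc8 (4 of 10, 12.8%) and for Acly and Pnpla3 at dpc16 (2 of 10, 8.36%). Within the same number at dpc16, zone 1 was above zone 3 in 3 of 3 numbers for 8 members, in 2 for Acacb and in 1 for Me1. The share of all genes with such an order was not computed.

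In the mean of the stages, zone 2 differed less from zone 3 than from zone 1 for all 10 members, an order that single stages did not always keep. Zone 2 lay between the outer zones for Acly and Pnpla3 and, with values close to those of zone 3, also for Srebf1, Fasn, Acaca and Elovl6. Against zone 2, zone 1 gave values above 0 for all 10 members, with a median of 0.85 and the highest values of 1.25 for Thrsp (limma adjusted p = 1), 1.16 for Acly (0.13), 1.06 for Pnpla3 (0.531), 1.05 for Fasn (0.559) and 1.03 for Elovl6 (0.567). None was called, against 0.919% of all genes (at an unadjusted p under 0.05, 5 members and 6.33% of all genes). Acly was called without dpc16 zone 2 replicate 3 (1.32, adjusted p = 0.0475) and with the number within each stage as a block (0.0223). Zone 2 against zone 3 also gave no call, against 1.88% of all genes (at an unadjusted p under 0.05, 2 members and 10% of all genes), with 0.95 for Pnpla3 (0.399), 0.90 for Acly (0.258) and values between -0.35 and 0.18 for the 8 others. The 5 biliary markers summed to 40.2 to 158 FPKM in zone 1 and 0.0884 to 91.6 FPKM in zone 3, and their part in the zone 1 values of the lipogenesis genes was not tested.

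Libraries of 1 group often differed in most members at once. At dpc16, replicate 3 was the highest of its 3 libraries for 9 of 10 members in zone 1, 6 in zone 2 and all 10 in zone 3, with a median deviation from the group mean of 1.58, 0.59 and 0.82 on the log2 scale. Replicate 3 was highest for 9 members in NP zone 1 and 8 in NP zone 3 but lowest for all 10 in NP zone 2, so in NP the numbers did not carry one level through the zones. At dpc8 replicate 3 was highest for 9, 7 and 8 members in zones 1, 2 and 3, and replicate 2 lowest for 9 in zone 2.

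**Figure D4:**
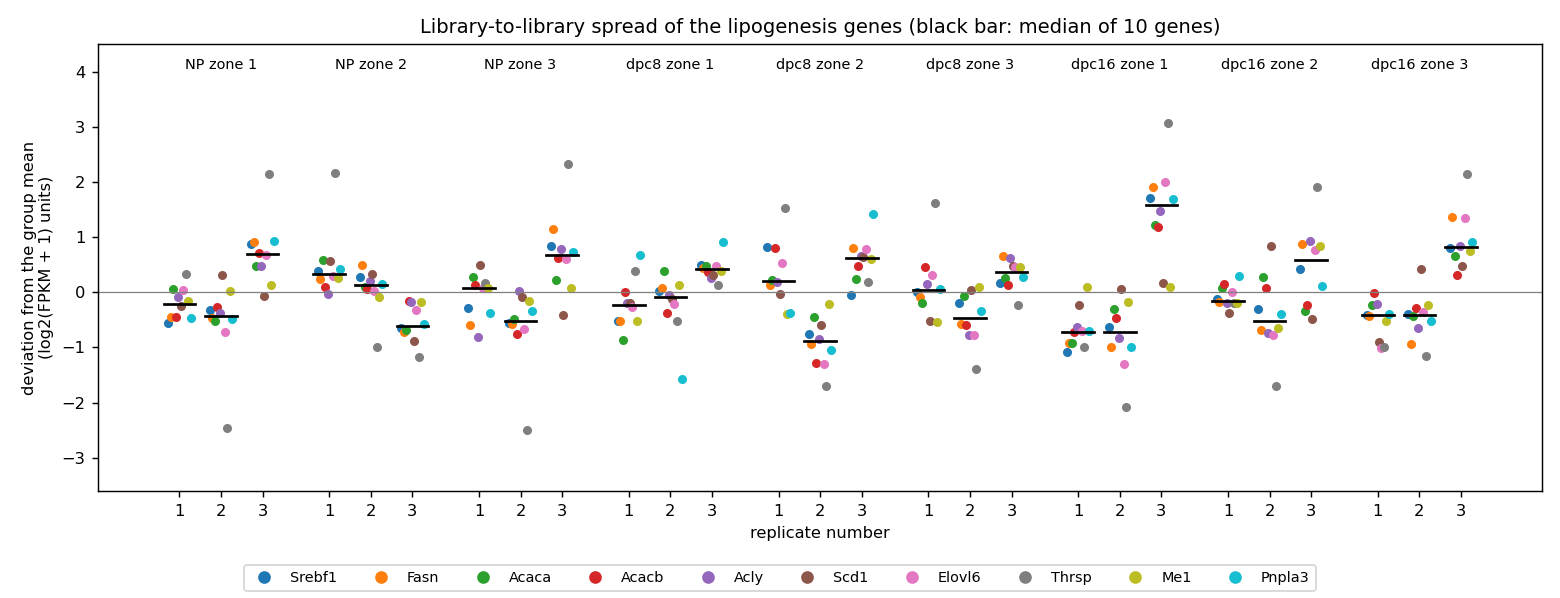
Deviation of each lipogenesis gene from its group mean, in log2(FPKM + 1) units, for the 27 libraries ordered by group and replicate number; points are genes and black bars the median of 10. In dpc16 zone 1 the median is 1.58 for replicate 3 and about -0.7 for the others, and Thrsp is the gene farthest from 0 in many libraries.

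Members differed in their spread within groups. Thrsp had a within-group SD of 1.94 on the log2 scale, above 99.3% of all genes tested, and its 95% interval for dpc16 against NP was -3.04 to 0.47. Fasn (0.957), Elovl6 (0.95) and Pnpla3 (0.932) followed, and Srebf1 (0.762), Acly (0.74), Acacb (0.649), Acaca (0.601) and Scd1 (0.557) were also above the median of all genes (0.451), while Me1 (0.458) lay near it. As a description over 27 libraries, which share their group means and library composition, the correlation of a member with the mean of the other 9 was highest for Fasn (r = 0.956) and Elovl6 (0.905) and lowest for Pnpla3 (0.125). Within groups, after the group means were taken out, it was 0.954 for Elovl6, 0.936 for Fasn, 0.904 for Srebf1 and 0.792 for Pnpla3, and lowest for Scd1 (0.216) and Me1 (0.486). Pnpla3 varied with the other members from library to library within groups, while its stage means went the other way.

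Among the 5 genes outside the set whose values were most like the mean of the members over the 27 libraries were Pklr (r = 0.907), which encodes the liver pyruvate kinase of glycolysis, Dclk3 (0.831) and Ell3 (0.821). Ell3 did not exceed 4.96 FPKM and Dclk3 9.82 FPKM.

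Among 25 regulators of the pathway, 7 were lower and 0 higher at dpc16 against NP in the mean of the zones, beside the 6.15% and 5.65% of all genes. Mlxipl, which encodes ChREBP, ranged from 50.1 to 96.0 FPKM with a median of 67.2 in NP, from 39.7 to 167 with a median of 79.6 at dpc8, and from 13.5 to 78.0 with a median of 23.4 at dpc16. It fell by 1.41 on the log2 scale (SE 0.27, limma adjusted p = 0.00135), and 1 dpc16 library, replicate 3 of zone 1, was as high as NP. Mid1ip1, whose product binds Spot 14 and activates acetyl-CoA carboxylase, fell by 2.28 (adjusted p = 0.00947) and Insig1, which retains SREBPs in the endoplasmic reticulum, by 1.46 (0.00183). The other 4 were Ppargc1b (-1.08), Prkaa2 (-0.96), Pparg (-0.79) and Srebf2 (-0.77), and the median of the list was -0.15. At dpc16 against dpc8, 4 regulators were lower and 1 was higher, beside 5.69% and 5.37% of all genes, and at dpc8 against NP none was called by limma (1 at an unadjusted p under 0.05, beside 0.108% and 6.11% of all genes).

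Of 20 genes that supply precursors and NADPH, 6 were lower and 1 higher at dpc16 against NP, beside 6.15% and 5.65% of all genes. The list median was -0.47, against -0.01 for all genes. Acss2, which makes acetyl-CoA from acetate, fell by 1.78 (limma adjusted p = 0.00484) and Khk, ketohexokinase, by 1.36 (0.000125), whereas H6pd rose by 0.89 (0.0185).

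The neighbouring lipid lists did not move as one, beside 6.15% of all genes called lower and 5.65% higher at dpc16 against NP. Of 18 cholesterol synthesis genes, 13 fell and 0 rose at dpc16 against NP, with all 18 values below 0 and a median of -1.25, close to the members' -1.30. Of 17 genes of fatty acid oxidation and ketogenesis none was called by limma (at an unadjusted p under 0.05, 7 of 17 beside 23.8% of all genes), with all 17 values above 0 and a median of 0.45. In the desaturation and elongation list 3 of 15 rose (Fads1, Fads2 and Tecr) and 2 fell (Acsl3 and Elovl3). In the list of triglyceride synthesis and lipid droplets 2 of 23 tested rose and 1 fell, counts near the shares of all genes. Plin2, a coat protein of lipid droplets, rose by 1.60 ± 0.25 (limma adjusted p = 0.000143) and Agpat2, an acyltransferase of triglyceride synthesis, fell by 1.44 (adjusted p = 0.000152), its 22.7 to 55.3 FPKM at dpc16 lying below its 65.4 to 160 FPKM in NP. In replicate 3 of dpc16 zones 1, 2 and 3, Plin2 was at 418, 401 and 331 FPKM, near its NP range of 135 to 345 FPKM, while the other 6 dpc16 libraries had 811 to 1176 FPKM. Of 10 genes known to be induced by fasting, Fgf21 (2.59, adjusted p = 0.00719), Igfbp1 (2.05, 0.0241) and Angptl4 (1.16, 0.0351) rose and Ppargc1a fell. In replicate 3 of dpc16 zones 1, 2 and 3, the libraries in which most members were highest, Fgf21 was at 1.03, 0.160 and 0.351 FPKM and Igfbp1 at 88.5, 24.3 and 61.9 FPKM, within their NP ranges of 0 to 2.34 and 8.98 to 138 FPKM, while the other 6 dpc16 libraries had 11.5 to 35.9 and 261 to 555 FPKM. The median deviation of the fasting-induced genes from the group mean in those 3 libraries was -0.28, -1.51 and -1.06 on the log2 scale. That of the hepatocyte markers was -0.18, -1.39 and -0.84 and that of the connective tissue and smooth muscle markers 1.05, 3.14 and 2.92 in the same libraries, of which those of zones 2 and 3 are among the 6 with Y-linked FPKM. At dpc16 against NP 0 of 15 clock genes were called by limma (0 at an unadjusted p under 0.05). The part of the fasting-induced genes and these markers in the values of the members in those 3 libraries was not tested.

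These list calls treat the zones as separate samples. With the zones of each stage and number averaged to 1 sample, limma called 1 of 18 cholesterol synthesis genes lower at dpc16 against NP, 3 of 25 regulators (Mlxipl, adjusted p = 0.0361, Prkaa2, 0.038, and Srebf2, 0.0459) and 3 of 20 precursor genes, among them Khk (0.0117), beside 1.6% of all genes lower and 1.48% higher in that fit. Fads1 (adjusted p = 0.0322), Plin2 (0.0451) and Agpat2 (0.0299) were also called, and none of the fasting-induced genes or Kupffer cell markers was, with Fgf21 at 0.201. For dpc16 against dpc8 in that fit 1 regulator was called lower and none higher.

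**Figure D5:**
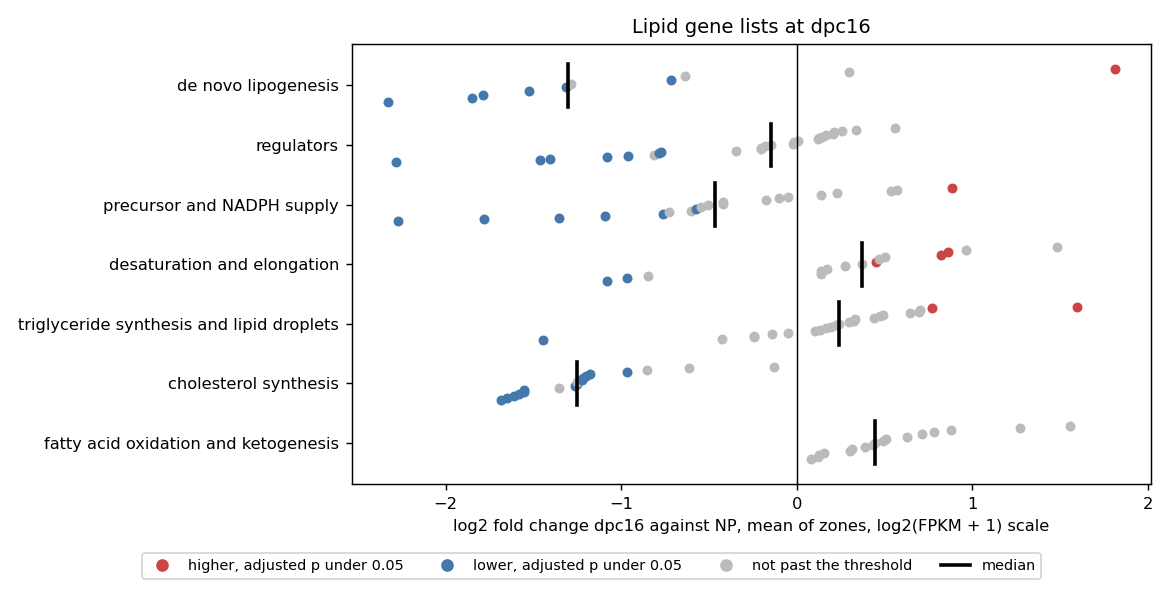
Fitted log2 fold change at dpc16 against NP (mean of zones) for each tested gene of 7 lipid lists, 1 row per list; colour marks genes past an adjusted p of 0.05 with zones as separate samples and the black bar the list's median. The lipogenesis and cholesterol synthesis rows centre at -1.30 and -1.25, and the fatty acid oxidation row lies above 0 with no coloured point.

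Between zones, most of these lists gave few calls, beside 2.7% of all genes higher and 2.89% lower in zone 1 against zone 3. Of the regulators 1 of 25 was called: Pparg was lower in zone 1 (-1.84 ± 0.21, limma adjusted p = 1.56e-06), with 0.895 to 4.19 FPKM in zone 1 and 4.70 to 16.6 FPKM in zone 3 and no overlap. Of the precursor list, Tkfc (1.33, adjusted p = 0.00044), which acts in fructose breakdown, Pklr (1.29, 0.00587) and Khk (0.71, 0.0488) were higher in zone 1, and Cs (-0.77, 0.00901), citrate synthase, was lower. Fitm1, which takes part in lipid droplet formation, was the 1 gene of 23 called in the triglyceride list, at 0 to 1.41 FPKM in zone 1 and 5.11 to 26.3 FPKM in zone 3. Elovl3 (-1.83) and Acot1 (-2.66) of 15 genes of desaturation and elongation and Bdh1 (-0.95) of 17 oxidation genes were lower in zone 1, and 0 of 18 cholesterol synthesis genes and 0 of 15 clock genes were called by limma (2 and 0 at an unadjusted p under 0.05, beside 15.4% of all genes). Of the 10 fasting-induced genes, G6pc (1.93, adjusted p = 0.00458) and Pck1 (1.84, 0.0342), which act in gluconeogenesis, and Ppargc1a (0.97, 0.0386) were higher in zone 1, as Acly and Pnpla3 were.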

How the data were processed

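RNA of microdissected liver zones was measured by sequencing in 27 libraries, 3 for each of 9 groups taken from the titles. Per the labels and the study's methods, the authors depleted ribosomal RNA, trimmed reads with cutadapt, aligned them to mm10 with HISAT2 2.1.0 and computed the deposited FPKM over GENCODE genes with Cuffdiff of Cufflinks 2.2.1. No counts were used, and depth was estimated from whole multiples among low values (93.67% to 99.34% of them, within 0.1 read).

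Genes with at least 1 FPKM in at least 3 libraries were log-transformed as log2(FPKM + 1) and fitted in R 4.3.3 by limma 3.58.1, with 9 group means, trend and robust settings, two-sided tests, and Benjamini-Hochberg adjustment within each of 21 comparisons. The procedure was tested on simulated data in which all libraries were independent. That test could not show how shared numbers or single deviating libraries affect the p-values. The study's methods say that experiments were repeated in different mice, but no source used here ties a library number to an animal or says whether the zones of one number share one, so p-values measure the spread between these libraries. Earlier results of these data were known when the members, the lists and the naming rule were chosen. The rule names all members, up to 4 called genes per list and direction whose groups do not overlap, regulators, markers and the 5 genes most like the members, and other called genes of the lists were chosen after their values were seen. Some genes that the rule names are not reported here. Over all genes, correlations between zones of the same number exceeded 0.1 in 9 of 9 pairs at dpc16 (0.263 to 0.863), 5 of 9 at dpc8 and 4 of 9 in NP, so the numbers were taken as pairs at dpc16. The block fits nevertheless covered all 3 stages. Alternatives were another pseudocount, no filter, other scalings, blocks, weights, a covariate and left-out libraries.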

Additional observations from a re-analysis of the deposited data

How the results depend on the processing

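Each comparison was repeated under the alternatives, counting the members called of 10, and the averaging of zones by number was run for the 3 stage comparisons in the mean of zones. Alternatives can also change the calls among all genes. At dpc16 against NP the averaged fit called 1.6% of all genes lower and 1.48% higher, against 6.15% and 5.65% with the zones as separate samples. For the other alternatives the share of all genes is not given here, so their counts are not set against it. The Srebf1, Scd1, Elovl6, Acly, Fasn and Pnpla3 calls at dpc16 against NP and the Acly and Pnpla3 calls between zones 1 and 3, both in the mean, held whichever single library was left out. With the zones of a number averaged, dpc16 against NP gave 2 calls and dpc16 against dpc8 gave 0. A pseudocount of 0.1 gave 1 between zones 1 and 3 at dpc8 and 1 for dpc16 against dpc8 in zone 3. No filter on low values gave 1 for dpc16 against NP in zone 2 and 0 for dpc16 against dpc8 in zones 1 and 2. Fitting only the groups compared gave 1 between zones 1 and 3 at dpc8 and 0 for dpc16 against NP in zones 2 and 3 and dpc16 against dpc8 in zones 1 and 2.

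The replicate block, with the number as a fixed term, gave 1, 2 and 1 between zones 1 and 3 in NP, at dpc8 and at dpc16, 4 in the mean of stages, 1 for zone 1 against 2 and 1 for zone 2 against 3. For dpc16 against NP it gave 1 in zone 1 and 2 in zone 3, and for dpc16 against dpc8 it gave 2, 3 and 2 in zones 1, 2 and 3. That term gives a number the same effect at all 3 stages, while pairing was examined only within stages. As a random block within stage, the pairing gave 1, 2, 1 and 4 between zones 1 and 3, 1 for zone 1 against 2, 2 for dpc16 against NP in zone 3 and 2 for dpc16 against dpc8 in zone 2. It ended the calls of Me1 for dpc16 against NP (adjusted p = 0.0636, limma) and Srebf1 for dpc16 against dpc8 (0.0959). The rule for pairing, over all genes, was met at dpc16 only, while over the 10 members same-number correlations exceeded 0.1 in 7 of 9 pairs in NP, 9 of 9 at dpc8 and 7 of 9 at dpc16.

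Quantile scaling gave 1 between zones 1 and 3 in NP, 1 at dpc8 and 2 for dpc16 against NP in zone 1. Array weights gave 2 at dpc8, 1 at dpc16 and 5 in the mean between zones 1 and 3, 1 for zone 1 against 2, 2, 6 and 5 for dpc16 against NP by zone, 2, 5 and 6 for dpc16 against dpc8 by zone, 9 in the mean of either, and 1 for dpc8 against NP. The connective tissue covariate gave 1 and 2 for dpc16 against NP in zones 1 and 3 and 3 for dpc16 against dpc8 in zone 2. Without the 6 libraries with Y-linked FPKM there was 1 between zones 1 and 3 at dpc16, 1 and 3 for dpc16 against NP in zones 1 and 3, and 2 and 2 for dpc16 against dpc8 in zones 2 and 3. Leaving out 1 library gave 0 to 1 between zones 1 and 3 at dpc8 and at dpc16, 2 to 3 in the mean, 0 to 1 for zone 1 against 2, 0 to 2, 1 to 2 and 0 to 1 for dpc16 against NP by zone and 6 to 8 in the mean, and 0 to 1 and 0 to 2 for dpc16 against dpc8 in zones 1 and 2 and 4 to 8 in its mean.

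Fold changes were followed for zone 1 against zone 3 in the mean, dpc16 against NP and dpc16 against dpc8 in the mean, and there signs turned for members that were not called. For dpc16 against NP, Acacb in zone 3 was -0.024 with array weights, -0.29 without the 6 libraries and from -0.14 (without NP zone 3 replicate 2) to 0.56 leaving out 1 library, and in zone 1 from -0.13 (without dpc16 zone 1 replicate 3) to 0.83. Thrsp in zone 2 ran from -1.60 to 0.43 (without NP zone 2 replicate 1), with 0.20 without dpc16 zone 2 replicate 2, and Acaca in zone 1 from -1.05 to 0.011 (without dpc16 zone 1 replicate 1). Between zones 1 and 3, Acacb ran from -0.15 to 0.17 and was below 0 without any of 5 libraries. The cause was not tested.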
